A study of Rattus norvegicus with 12 samples.

Results

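The genes described here are the secreted inhibitors of Wnt signalling Sfrp1, Sfrp2, Sfrp4, Sfrp5, Frzb, Wif1 and Dkk3, the R-spondin receptors Lgr4 and Lgr5, and the feedback gene Axin2. They were chosen by symbol, from what they are known to do, with earlier results of these data known. Of these 10 genes 9 had a row among the 16493 gene symbols of the files, and Sfrp1 is not analysed here. The uteri of Sprague-Dawley rats gave 12 poly-A RNA libraries, 3 for each of 4 groups, and each library pooled RNA from 2 uteri. All 4 groups were ovariectomized, which removes the ovarian source of estrogen. The CAS group ate casein, a milk protein, and was infused with vehicle. The CAS-E2 group ate casein and received 17β-estradiol (E2), the main ovarian estrogen, at 5 μg/kg/d from a minipump under the skin. The SPI group was fed soy protein isolate, a source of plant isoflavones, with vehicle, and the SPI-E2 group ate soy protein isolate and received the same E2 dose. By the study's methods the diets were fed from postnatal day 30 to 65, with ovariectomy on day 50, and uteri were collected on day 65, although other parts of its text give a slightly younger age and a shorter feeding period. Libraries of 1 group were combined on the flow cell, so that the effects of lane and group cannot be told apart.

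Wnt proteins are secreted ligands that bind Frizzled receptors and their Lrp co-receptors at the cell surface and stabilise β-catenin, which then activates target genes with TCF/LEF factors. Secreted frizzled-related proteins (the Sfrp genes and Frzb) carry a Frizzled-like domain, and Wif1 has a WIF domain; both kinds bind Wnt ligands outside the cell. Dkk3 belongs by sequence to the Dickkopf family, whose other members block Lrp co-receptors. Lgr4 and Lgr5 bind R-spondins, which keep the ubiquitin ligases Rnf43 and Znrf3 from removing Frizzled receptors, and so raise the response to a Wnt ligand. Axin2 is a scaffold of the β-catenin destruction complex and is itself a widely used target of the pathway. In the uterus, Wnt signalling between stroma and epithelium is known for its part in gland formation and in the growth response to estrogen.

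Values are in FPKM, which the authors estimated with Cufflinks as fragments scaled to transcript length and to the mapped reads of the library. Levels per length can set side by side between genes. The files imply 6353210 to 9862180 mapped reads per library, and the FPKM of all genes summed to between 131703 and 213693. Over the libraries, the reads behind a member ranged from 403 to 1296 for Dkk3, from 53 to 929 for Sfrp2, from 18 to 465 for Lgr5, from 1 to 117 for Wif1 and from 1 to 64 for Sfrp5. The lowest values of Wif1 and Sfrp5 therefore rest on a few reads. Differences were tested with limma on log2(FPKM + 1) over the 10279 genes that reached 1 FPKM in 3 or more libraries. All 9 measured genes passed that filter, but Wif1 reached 1 FPKM only in CAS and SPI libraries, and Sfrp5 only in those and in SPI-E2 1. A gene was called lower or higher at a Benjamini-Hochberg adjusted p under 0.05 with at least a 2-fold change on the log2(FPKM + 1) scale, where folds of scarce genes come out smaller than in FPKM. The p-values measure the spread between pools, which 1 fit shares over all 4 groups.

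In ovariectomized rats fed casein, Sfrp2 was the most abundant of the 9 genes, at 42.7 ± 5.49 FPKM (SD, n = 3 pools), followed by Dkk3 at 26.3 ± 3.41 FPKM. Next came Lgr5 at 14.8 ± 1.49 FPKM, Axin2 at 12.9 ± 0.395 FPKM and Lgr4 at 11.1 ± 1.41 FPKM. Sfrp4, Wif1, Sfrp5 and Frzb were scarce, with means of 5.72, 4.91, 2.87 and 2.37 FPKM. In that order the ranges of the CAS pools overlapped between Lgr5 and Axin2, between Sfrp4 and Wif1, between Wif1 and Sfrp5, and between Sfrp5 and Frzb, so these neighbours cannot be ranked. With E2 on casein the order was another one. Dkk3 then stood alone at 36.3 ± 11.98 FPKM, and every other member had a mean of 6.25 FPKM or less. Axin2 had the next highest mean at 6.25 ± 0.614 FPKM, but its range overlapped with that of Sfrp4. Sfrp2, Frzb, Lgr4 and Sfrp4 had overlapping ranges, and Wif1 and Sfrp5 lay below the lowest Lgr5 pool.

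**Figure D1:**
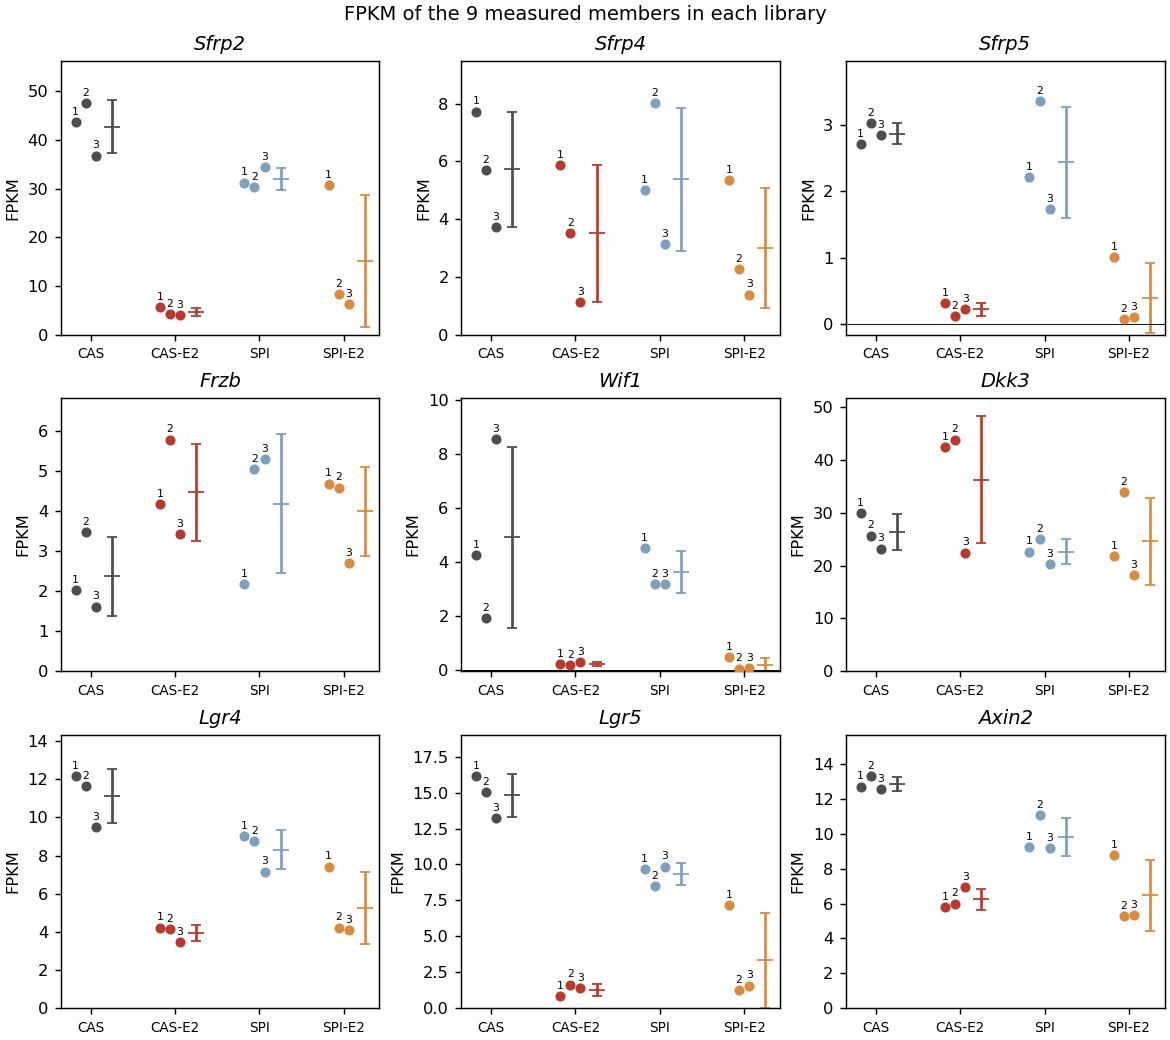
FPKM of each of the 9 genes (one panel a gene, linear axis) in the 3 pools of the CAS, CAS-E2, SPI and SPI-E2 groups; points are pools and bars the mean and SD. Sfrp2, Sfrp5, Wif1, Lgr4, Lgr5 and Axin2 have all CAS-E2 pools below all CAS pools, while the pools overlap for Sfrp4, Frzb and Dkk3.

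The comparison of CAS-E2 with CAS asks what estradiol does on the casein diet. Among the secreted inhibitors Sfrp2, Sfrp5 and Wif1 fell with E2, and so did both R-spondin receptors, Lgr4 and Lgr5. Sfrp4, Frzb and Dkk3 did not pass the test, and no member rose. In all 5 of the 9 members were called lower, where 6.37% of the 10279 genes tested were called lower and 7.99% higher. Wif1 and Sfrp5 are in that count, although they reached 1 FPKM in no CAS-E2 library. They passed the filter through groups where they are high, so their calls do not strengthen the count. The median log2 fold change was -1.29 over the 9 members and -0.07 over all genes tested. With every library rescaled to a common FPKM sum the median over all genes was -0.24, and 997 genes were called lower and 626 higher in place of 655 and 821; 6 members were then lower and none higher.

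Sfrp2, a secreted frizzled-related protein of mesenchymal cells, lies at chr2:175479320-175486865 of rn4 on the plus strand, in 3 exons. It measured 43.7, 47.7 and 36.8 FPKM in the CAS pools 1 to 3 and 5.58, 4.19 and 3.99 FPKM in the CAS-E2 pools. The groups were far apart, with the lowest CAS pool well above the highest CAS-E2 pool. The mean was 9.31-fold lower with E2, and the log2 fold change was -2.97 (SE 0.41, limma adjusted p = 0.000475).

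Wif1, the secreted Wnt inhibitory factor, lies at chr7:60330517-60400697 of rn4 on the plus strand, in 10 exons. It measured 4.27, 1.92 and 8.54 FPKM in CAS and 0.211, 0.168 and 0.302 FPKM in CAS-E2. The CAS pools spread widely among themselves, yet each lay above every CAS-E2 pool. The log2 fold change was -2.11 (SE 0.33, limma adjusted p = 0.000959). The group totals behind these values were 226 reads in CAS and 10 reads in CAS-E2.

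Sfrp5, a further frizzled-related protein, lies at chr1:248652323-248656785 of rn4 on the plus strand, in 3 exons. It measured 2.72, 3.04 and 2.85 FPKM in CAS and 0.316, 0.123 and 0.225 FPKM in CAS-E2, from totals of 136 and 10 reads. The CAS pools were close to each other and the CAS-E2 pools near the detection limit. The log2 fold change was -1.67 (SE 0.24, limma adjusted p = 0.000623), and the mean FPKM was 13.0-fold lower.

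Lgr5, an R-spondin receptor known as a marker of epithelial stem cells, lies at chr7:54737745-54876664 of rn4 on the minus strand, in 18 exons. It measured 16.2, 15.1 and 13.2 FPKM in CAS and 0.799, 1.61 and 1.36 FPKM in CAS-E2. No pool of either group came near the other group. The mean was 11.8-fold lower with E2, with a log2 fold change of -2.82 (SE 0.38, limma adjusted p = 0.000415), and the reads summed to 1104 in CAS and 93 in CAS-E2.

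Lgr4, the related receptor, lies at chr3:95370046-95471040 of rn4 on the plus strand, in 18 exons. It measured 12.2, 11.7 and 9.51 FPKM in CAS and 4.22, 4.15 and 3.44 FPKM in CAS-E2. Its pools were as cleanly separated, but the fold was smaller. The mean was 2.82-fold lower, with a log2 fold change of -1.29 (SE 0.19, limma adjusted p = 0.000742). The ratio of Lgr5 to Lgr4 was 1.29 to 1.39 in the CAS pools and 0.189 to 0.395 in the CAS-E2 pools.

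Axin2, the feedback scaffold, lies at chr10:98294466-98321828 of rn4 on the plus strand, in 11 exons. It measured 12.7, 13.3 and 12.6 FPKM in CAS and 5.80, 6.00 and 6.95 FPKM in CAS-E2. All 3 CAS-E2 pools lay below all 3 CAS pools. Its log2 fold change of -0.94 (SE 0.17, limma adjusted p = 0.00196) passed the adjusted p but fell just short of the fold cutoff, while the means of the FPKM themselves differed 2.06-fold. By the adjusted p alone 6 members were lower, against 22.0% of all genes tested. The pools of these 6 members did not overlap between CAS-E2 and CAS, and 31.2% of all genes had every CAS-E2 pool below every CAS pool.

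The remaining secreted inhibitors behaved otherwise. Dkk3 (chr1:169924617-169964692 of rn4, minus strand, 8 exons) measured 29.96, 25.7 and 23.2 FPKM in CAS and 42.5, 43.9 and 22.5 FPKM in CAS-E2. Pools 1 and 2 of CAS-E2 lay above every CAS pool and pool 3 lay below, and the log2 difference of 0.40 did not pass the test (95% interval -0.18 to 0.98, limma adjusted p = 0.256). Frzb (chr3:63350505-63383436 of rn4, minus strand, 7 exons), also known as secreted frizzled-related protein 3, measured 2.01, 3.48 and 1.61 FPKM in CAS and 4.18, 5.78 and 3.43 FPKM in CAS-E2. Only the lowest CAS-E2 pool overlapped with CAS, and the log2 difference of 0.71 (95% interval 0.07 to 1.36) had an adjusted p of 0.0754 in limma. Sfrp4 (chr17:53121425-53131507 of rn4, minus strand, 6 exons) measured 7.72, 5.70 and 3.73 FPKM in CAS and 5.87, 3.50 and 1.13 FPKM in CAS-E2. Its pools varied as much within as between these groups, and the log2 difference of -0.69 had an interval from -1.69 to 0.31 (limma adjusted p = 0.252).

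**Figure D2:**
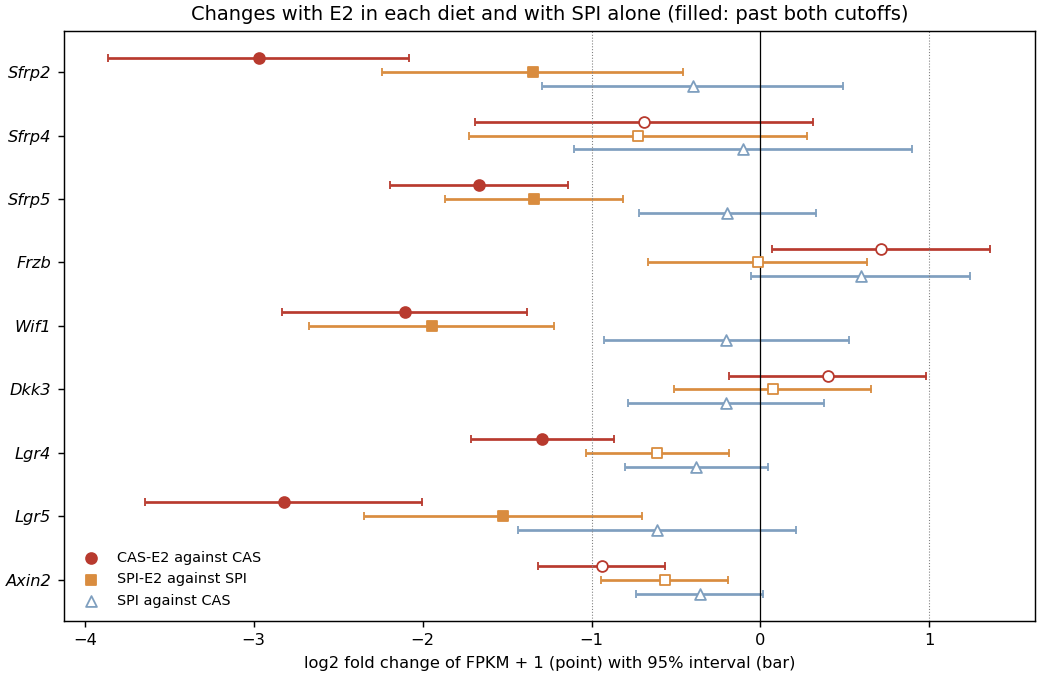
Log2 fold change of each gene on the log2(FPKM + 1) scale with its 95% interval from limma, for CAS-E2 against CAS, SPI against CAS and SPI-E2 against SPI; filled symbols passed both the adjusted p and the 2-fold cutoff and open symbols did not. Sfrp2, Sfrp5, Wif1 and Lgr5 are filled in both E2 comparisons, Lgr4 only on casein, and no gene is filled for the diet alone.

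The make-up of the RNA of the 6 measured inhibitors among the members therefore differed between CAS and CAS-E2. The sum leaves out inhibitors that are not members. Of these Igfbp4, listed below among other secreted or membrane inhibitors, averaged 68.3 FPKM in CAS and 47.9 FPKM in CAS-E2. The 6 member inhibitors summed to 76.8 to 90.4 FPKM in the CAS pools and to 31.6 to 58.6 FPKM in the CAS-E2 pools. Sfrp2 made up 47.9% to 54.5% of that sum in CAS and 7.27% to 12.6% in CAS-E2. Dkk3 made up 29.4% to 33.1% in CAS and 71.2% to 76.1% in CAS-E2. Among these 6, Sfrp2 thus held the largest share in every CAS pool and Dkk3 in every CAS-E2 pool. Without Dkk3, the rest of the 6 summed to 53.5 to 61.8 FPKM in CAS and to 9.08 to 16.2 FPKM in CAS-E2. These shares describe RNA and not protein.

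**Figure D3:**
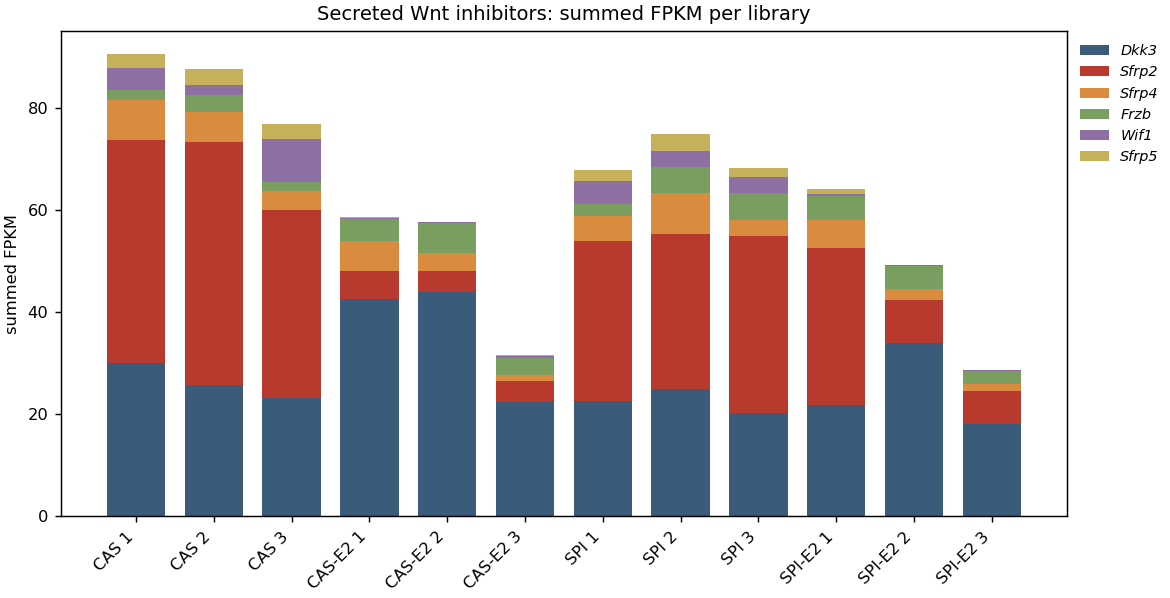
Summed FPKM of the 6 measured secreted inhibitors among the members in each of the 12 libraries, stacked by gene on a linear axis from 0. Sfrp2 is the largest segment in the CAS and SPI libraries and in SPI-E2 1, and Dkk3 in the CAS-E2 libraries and in SPI-E2 2 and 3.

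Markers of the cell types of the uterus moved in the same comparison. The 7 stromal fibroblast markers, of which Lum and Vim were called lower, summed to 728 to 912 FPKM in CAS and 353 to 815 FPKM in CAS-E2. The 5 measured of 6 epithelial markers (keratins, Epcam and Cdh1) were all called higher and summed to 171 to 198 FPKM in CAS and 794 to 1373 FPKM in CAS-E2. The 6 leukocyte markers, 4 of them called higher among the 5 tested, summed to 104 to 161 FPKM and 389 to 475 FPKM. None of the 5 smooth muscle markers was called. In whole-organ RNA fewer cells of a type and less RNA per cell cannot be told apart. Per 1000 FPKM of the stromal sum, Sfrp2 stood at 48.0 to 58.8 in CAS and 6.85 to 11.3 in CAS-E2, Lgr5 at 17.7 to 18.6 and 0.981 to 3.85, and Lgr4 at 13.1 to 14.4 and 5.18 to 9.76. Sfrp5 stood at 2.98 to 3.92 and 0.228 to 0.638, and Wif1 at 2.37 to 11.7 and 0.260 to 0.856. The groups stayed apart for these 5 genes on that scale. The scale refers to stromal markers alone and takes no account of epithelial or other cells, also for Lgr5. Axin2 stood at 14.0 to 17.3 and 7.12 to 19.7, so its groups overlapped, and Dkk3 stood at 31.7 to 32.9 and 52.1 to 81.6. The part of cell composition in the changes was not tested further. Esr1, an estrogen receptor, averaged 39.9 ± 0.747 FPKM in CAS and 17.8 ± 4.59 FPKM in CAS-E2 (log2 fold change -1.15, SE 0.25, limma adjusted p = 0.00461). Pgr, the progesterone receptor, averaged 22.5 ± 1.31 and 28.8 ± 12.7 FPKM (limma adjusted p = 0.548).

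The comparison of SPI with CAS asks what the soy diet does without estradiol. None of the 9 members was called, and 0.0195% of all genes tested were. The intervals below use the spread shared over 4 groups, SPI-E2 1 included, and not that of the SPI and CAS pools alone. They are wider where SPI-E2 1 stood apart from its group. For Lgr5 the SE was 0.38 here and in SPI-E2 against CAS-E2, and 0.17 in the latter without SPI-E2 1. Sfrp2 measured 31.2, 30.3 and 34.5 FPKM in SPI, below every CAS pool, with a log2 difference of -0.40 (95% interval -1.29 to 0.49, limma adjusted p = 0.678). Lgr5 measured 9.67, 8.47 and 9.85 FPKM in SPI, also below every CAS pool (log2 difference -0.61, 95% interval -1.43 to 0.21, limma adjusted p = 0.488). The same held for Lgr4, at 9.03, 8.74 and 7.15 FPKM, and for Axin2, at 9.24, 11.1 and 9.19 FPKM, with log2 differences of -0.38 (95% interval -0.80 to 0.04) and -0.36 (95% interval -0.74 to 0.02). These 4 of 9 members with all SPI pools below all CAS pools stand beside 30.8% of all genes with that order. The median log2 difference over all genes was -0.16, and over the 9 members -0.20. Dkk3, Sfrp4, Sfrp5 and Wif1 overlapped between the diets, at 20.3 to 25.0, 3.12 to 8.03, 1.74 to 3.36 and 3.17 to 4.52 FPKM in SPI. The sign of the Sfrp4 difference, -0.10, turned with the scaling of the libraries (0.07 with median-ratio scaling). Frzb measured 2.18, 5.05 and 5.30 FPKM in SPI, with pools 2 and 3 above every CAS pool and a log2 difference of 0.59 (95% interval -0.05 to 1.24).

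The comparison of SPI-E2 with SPI asks what estradiol does on the soy diet, and it shares no library with CAS-E2 against CAS. Sfrp2, Sfrp5, Wif1 and Lgr5 were called lower, which is 4 of the 9 members beside 1.86% of all genes called lower and 8.39% called higher. Wif1 reached 1 FPKM in no SPI-E2 library and Sfrp5 only in SPI-E2 1. Both passed the filter through groups where they are high, so their calls do not strengthen this count either. By the adjusted p alone Lgr4 and Axin2 were lower as well, and such a fall was found in 6.57% of all genes. The median log2 fold change was -0.73 over the members and 0.11 over all genes. The split over all genes moved with the scaling, from 191 lower and 862 higher to 279 and 706 with median-ratio scaling and to 485 and 556 with a common FPKM sum (median -0.19), whereas the 4 members were called lower each time. The library SPI-E2 1 stood apart from the other pools of its group for most members, so the values are given for each pool.

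Sfrp2 measured 30.8 FPKM in SPI-E2 1, inside the SPI range, and 8.35 and 6.31 FPKM in SPI-E2 2 and 3. Its groups overlapped through that pool, and its log2 fold change was -1.35 (SE 0.41, limma adjusted p = 0.0301). Without SPI-E2 1 it was -2.00 (SE 0.17, limma adjusted p = 8.52e-06). The call with all pools ended when any of SPI 1, SPI 2, SPI 3, SPI-E2 2 or SPI-E2 3 was left out (limma adjusted p of 0.0633, 0.0724, 0.0800, 0.124 and 0.119).

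Lgr5 measured 7.14 FPKM in SPI-E2 1 and 1.23 and 1.54 FPKM in SPI-E2 2 and 3. All lay below the lowest SPI pool, and the first pool lay nearer to SPI than to its own group. The log2 fold change was -1.52 (SE 0.38, limma adjusted p = 0.0126), and -2.12 (SE 0.17, limma adjusted p = 5.17e-06) without that pool. The call ended without SPI-E2 2 (limma adjusted p = 0.0610) or without SPI-E2 3 (limma adjusted p = 0.0566).

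Wif1 and Sfrp5 fell in all 3 pools. Wif1 measured 4.52, 3.17 and 3.18 FPKM in SPI and 0.484, 0.0527 and 0.0745 FPKM in SPI-E2, with a log2 fold change of -1.95 (SE 0.33, limma adjusted p = 0.00218) from 205 and 10 reads. Sfrp5 measured 2.22, 3.36 and 1.74 FPKM in SPI and 1.00, 0.0680 and 0.102 FPKM in SPI-E2, with a log2 fold change of -1.34 (SE 0.24, limma adjusted p = 0.00275) from 131 and 17 reads. Neither call was lost on leaving out any single pool.

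Lgr4 measured 7.41 FPKM in SPI-E2 1, inside the SPI range, and 4.21 and 4.10 FPKM in SPI-E2 2 and 3. Its log2 fold change was -0.61 (SE 0.19, limma adjusted p = 0.0358). Axin2 measured 8.80, 5.26 and 5.35 FPKM in SPI-E2, with a log2 fold change of -0.57 (SE 0.17, limma adjusted p = 0.0308). The first pool was again the highest for both genes, and both passed the adjusted p but not the fold cutoff. Sfrp5, Wif1, Lgr5 and Axin2 had all SPI-E2 pools below all SPI pools, an order that 11.2% of all genes showed.

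Dkk3, Frzb and Sfrp4 did not pass the test on soy either. Dkk3 measured 21.8, 33.9 and 18.1 FPKM in SPI-E2, with pools on both sides of the SPI range and a log2 difference of 0.07 (95% interval -0.51 to 0.65) whose sign turned with median-ratio scaling (-0.07) and with a common FPKM sum (-0.29). Frzb measured 4.68, 4.58 and 2.69 FPKM, within the SPI range (log2 difference -0.02, 95% interval -0.66 to 0.63). Sfrp4 measured 5.35, 2.25 and 1.38 FPKM, with SPI-E2 1 inside the SPI range and the other pools below it (log2 difference -0.73, 95% interval -1.73 to 0.27, limma adjusted p = 0.253).

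**Figure D4:**
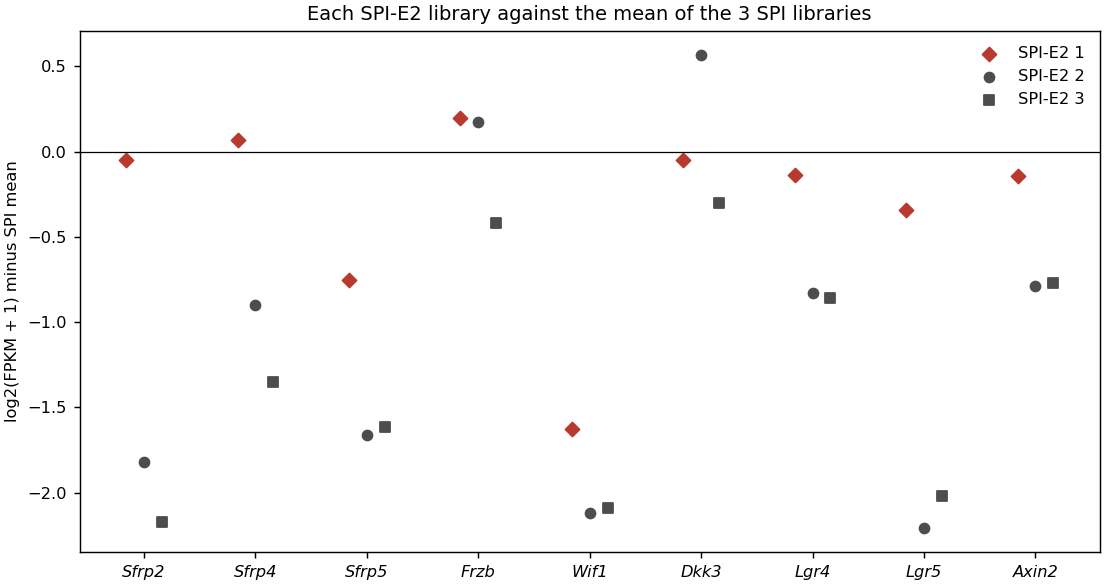
Difference of each SPI-E2 pool from the mean of the 3 SPI pools on the log2(FPKM + 1) scale, for each gene; the line at 0 is the SPI mean. SPI-E2 1 (diamonds) lies nearer to 0 than both other pools for Sfrp2, Sfrp4, Sfrp5, Wif1, Lgr4, Lgr5 and Axin2.

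The position of SPI-E2 1 was put on a scale on which the SPI mean is 0% and the mean of SPI-E2 2 and 3 is 100%, in log2(FPKM + 1). Sfrp4, which did not pass the test, stood at -6.00% on that scale, just beyond the SPI mean, Sfrp2 at 2.62%, Lgr5 at 16.1%, Lgr4 at 16.6% and Axin2 at 18.3%. Sfrp5 stood at 46.0% and Wif1 at 77.2%. Wif1 and Sfrp5 thus lay nearer to the other E2 pools than Sfrp2, Sfrp4, Lgr4, Lgr5 and Axin2 did. For comparison, the median was 16.2% over 566 genes called lower in CAS-E2 against CAS and 46.0% over 767 genes called higher there. These are the called genes whose SPI mean and mean of SPI-E2 2 and 3 differed by at least 0.5 in log2(FPKM + 1). That filter uses the same values as the scale. Dkk3 and Frzb moved less than that and were given no position. The same pool had less epithelial and more stromal RNA than its group: the epithelial markers summed to 467 FPKM in SPI-E2 1 and to 1639 and 1653 FPKM in SPI-E2 2 and 3, and the stromal markers to 698, 389 and 279 FPKM. In SPI they summed to 115 to 144 and 756 to 903 FPKM. Of the 7 stromal markers 5 were called lower in SPI-E2 against SPI. Per 1000 FPKM of the stromal sum, Sfrp2 stood at 34.5 to 45.6 in SPI and 21.5 to 44.1 in SPI-E2, and its ranges overlapped. On the same scale Lgr4 stood at 9.47 to 10.003 in SPI and 10.6 to 14.7 in SPI-E2, which is the opposite order to its FPKM, and Axin2 overlapped at 10.2 to 12.6 and 12.6 to 19.2. Lgr5 overlapped as well, at 9.64 to 13.04 in SPI and 3.16 to 10.2 in SPI-E2. Wif1 and Sfrp5 stayed lower on that scale, at 3.61 to 5.004 and 0.135 to 0.693 for Wif1 and at 2.30 to 3.83 and 0.175 to 1.44 for Sfrp5. The part of tissue composition in the values of SPI-E2 1 was not tested.

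The make-up of the member inhibitors followed the same split among the SPI-E2 pools. Dkk3 made up 29.8% to 33.4% of their summed FPKM in SPI, 34.0% in SPI-E2 1, and 68.9% and 63.2% in SPI-E2 2 and 3. The ratio of Lgr5 to Lgr4 was 0.969 to 1.38 in SPI, 0.964 in SPI-E2 1, and 0.292 and 0.375 in SPI-E2 2 and 3.

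Against the casein control, SPI-E2 combines both treatments. Sfrp2, Sfrp5, Wif1 and Lgr5 were called lower, with log2 fold changes of -1.75, -1.54, -2.15 and -2.14, beside 3.89% of all genes called lower and 6.84% called higher. These shares are 400 and 703 genes, and 677 and 536 with a common FPKM sum. Wif1 and Sfrp5 again passed the filter through groups where they are high. Lgr4 (-0.99, limma adjusted p = 0.00458) and Axin2 (-0.93, limma adjusted p = 0.00374) passed the adjusted p alone, which 14.9% of all genes did in that direction. Without SPI-E2 1 these 2 genes were called as well, at -1.22 and -1.14, with the limit given above for fits without that pool. This comparison shares its CAS libraries with the other comparisons against CAS.

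Whether diet changed the members under estradiol was asked by SPI-E2 against CAS-E2 and by the difference between the E2 effects of the diets. In SPI-E2 against CAS-E2 none of the 9 members was called, as against 0.00973% of all genes. Sfrp2 was the member with every SPI-E2 pool above every CAS-E2 pool, an order seen in 4.47% of all genes, and its log2 difference was 1.22 (95% interval 0.33 to 2.11, limma adjusted p = 0.674). Without SPI-E2 1 the difference was 0.58 (limma adjusted p = 0.253). For Wif1, Sfrp5 and Axin2 the log2 differences between the E2 groups were -0.04, 0.13 and 0.01, with intervals of -0.77 to 0.68, -0.40 to 0.65 and -0.36 to 0.39.

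The E2 effect in SPI minus the E2 effect in CAS was called by limma for none of the members and for 0.0% of all genes. With array weights, which give libraries that stand apart less weight, 37 genes were called lower and 133 higher. It was 1.62 for Sfrp2 (SE 0.58, limma adjusted p = 0.242), 1.30 for Lgr5 (SE 0.53, limma adjusted p = 0.281) and 0.68 for Lgr4 (SE 0.27, limma adjusted p = 0.274), in each case a smaller fall on soy. These 3 of the 9 members had an unadjusted p under 0.05, beside 14.9% of all genes, and the median of this difference over all genes was 0.21. Without SPI-E2 1 the values for Sfrp2, Lgr5 and Lgr4 were 0.98, 0.71 and 0.45 (limma adjusted p of 0.0650, 0.126 and 0.240). A difference between the diets in the response of these genes to E2 was therefore not shown, and its intervals were wide.

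Promoter sequences are shown for Sfrp2, Wif1, Lgr4 and Axin2, which fell together with E2, to set their sequences side by side. RefSeq windows of 250 bases before to 50 bases after the gene start, on the GRCr8 build and so not on the build of the expression files, were matched for 6 of the 10 genes: Sfrp2, Sfrp5, Frzb, Wif1, Lgr4 and Axin2. Capitals mark matches to 4 motifs searched on both strands: the estrogen response element GGTCANNNTGACC, its arm TGACC alone, the TCF/LEF motif CTTTGAT and the GC box GGGCGG. The arm TGACC is contained in the full element, and on the opposite strand it reads GGTCA and the GC box CCGCCC. The windows below are written 5′ to 3′ along the gene.
Sfrp2 (chr2:171387286-171387585, plus strand): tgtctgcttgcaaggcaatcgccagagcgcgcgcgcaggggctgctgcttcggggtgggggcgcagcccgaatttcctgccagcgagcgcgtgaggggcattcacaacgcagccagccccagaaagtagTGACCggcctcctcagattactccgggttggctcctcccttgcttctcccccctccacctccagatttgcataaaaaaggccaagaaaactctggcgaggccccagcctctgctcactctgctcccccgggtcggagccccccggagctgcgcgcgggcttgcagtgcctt
Wif1 (chr7:58433329-58433628, plus strand): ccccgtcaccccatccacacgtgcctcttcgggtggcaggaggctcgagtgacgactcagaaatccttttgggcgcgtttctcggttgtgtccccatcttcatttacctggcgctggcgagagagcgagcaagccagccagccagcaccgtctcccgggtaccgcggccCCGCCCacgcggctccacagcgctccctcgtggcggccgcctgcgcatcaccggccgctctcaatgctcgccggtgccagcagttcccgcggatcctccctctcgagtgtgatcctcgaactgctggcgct
Lgr4 (chr3:116901718-116902017, plus strand): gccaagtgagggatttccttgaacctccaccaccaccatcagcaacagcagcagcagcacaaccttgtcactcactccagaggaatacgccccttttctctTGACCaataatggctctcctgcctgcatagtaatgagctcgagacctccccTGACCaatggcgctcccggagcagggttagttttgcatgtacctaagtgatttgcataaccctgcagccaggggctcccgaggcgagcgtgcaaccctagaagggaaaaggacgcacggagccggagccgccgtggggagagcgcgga
Axin2 (chr10:94398535-94398834, plus strand): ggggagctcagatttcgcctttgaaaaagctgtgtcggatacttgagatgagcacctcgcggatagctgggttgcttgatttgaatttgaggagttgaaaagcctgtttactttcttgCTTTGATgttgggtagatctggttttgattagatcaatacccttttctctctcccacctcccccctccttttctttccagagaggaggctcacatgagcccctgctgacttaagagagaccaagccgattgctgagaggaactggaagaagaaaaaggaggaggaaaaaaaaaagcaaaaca

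The full estrogen response element was in none of the 6 windows and in 0.0269% of the 33469 windows of the genome. The arm TGACC, present in 40.5% of all windows, began 121 bases before the start of Sfrp2 and 149 and 98 bases before that of Lgr4, and was also in the windows of Sfrp5 and Frzb on the opposite strand. Sfrp5 is on the plus strand in the rn4 files and on the minus strand in GRCr8, so that its start, and with it its window, is uncertain and the window is not shown. The TCF/LEF motif, in 3.63% of all windows, was in the Axin2 window alone among the 6, 132 bases before the start. The GC box, in 33.1% of all windows, was in the Wif1 window alone, on the opposite strand. The windows also differed in base composition, with a GC content of 67.0% for Wif1, 65.0% for Sfrp2, 57.7% for Lgr4 and 45.7% for Axin2 beside a median of 51.7% over all windows. Genes that fell together with E2 thus shared no match to a motif searched other than the common TGACC. A match is a description of letters and not a binding site, and the absence of one says only that these letters are not in these windows.

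The other genes of the pathway were grouped by role, in lists chosen with earlier results of these data known. The counts of all these lists stand beside 6.37% of all genes called lower and 7.99% called higher in CAS-E2 against CAS. In SPI-E2 against SPI the shares were 1.86% and 8.39%. The lists are short, and their counts are given as a description. Of the 9 Wnt ligands tested, 1 was called higher and 3 lower in CAS-E2 against CAS, and 3 higher and 1 lower in SPI-E2 against SPI. Wnt7b, an epithelial ligand, rose from 1.38 ± 0.359 to 7.08 ± 1.56 FPKM on casein (log2 fold change 1.75, SE 0.25, limma adjusted p = 0.000548) and from 1.65 ± 0.320 to 11.2 ± 4.62 FPKM on soy (2.14, SE 0.25, limma adjusted p = 0.000283). Wnt6 fell from 4.11 ± 0.444 to 0.243 ± 0.109 FPKM on casein (-2.04, SE 0.33, limma adjusted p = 0.00104). Its CAS-E2 mean was below 1 FPKM, so Wnt6 passed the filter through other groups. Wnt4, a ligand of the uterine stroma and epithelium, rose on soy from 4.40 ± 0.417 to 16.2 ± 4.81 FPKM (1.63, SE 0.20, limma adjusted p = 0.000402), and on casein measured 7.89 ± 0.628 and 11.2 ± 1.85 FPKM (limma adjusted p = 0.0957). The ligands thus moved in both directions, whereas the members called moved only down. Of those members, Wif1 and Sfrp5 had passed the filter through groups where they are high.

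Of the 3 R-spondin-related genes tested beside Lgr4 and Lgr5, 2 were called lower on casein and 1 on soy. Rspo3, which encodes an R-spondin ligand of the Lgr receptors, fell from 14.1 ± 3.86 to 4.10 ± 0.368 FPKM on casein (-1.54, SE 0.27, limma adjusted p = 0.00171) and from 12.3 ± 1.46 to 4.34 ± 2.50 FPKM on soy (-1.41, SE 0.27, limma adjusted p = 0.00418). Rnf43, the ubiquitin ligase that R-spondins inhibit and itself a target of the pathway, fell on casein from 5.27 ± 0.684 to 1.68 ± 0.397 FPKM (-1.23, SE 0.15, limma adjusted p = 0.000230). A ligand, both Lgr receptors and the ligase they act on were thus all called lower with E2 on casein.

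Among the 12 Frizzled receptors and co-receptors tested, 4 were called lower on casein and none higher, and on soy 1 was called higher and none lower. Fzd2 fell from 20.5 ± 1.40 to 6.34 ± 0.866 FPKM on casein (-1.56, SE 0.25, limma adjusted p = 0.000992), and Fzd1 from 16.5 ± 0.385 to 6.34 ± 0.780 FPKM (-1.26, SE 0.23, limma adjusted p = 0.00196). Fzd5 rose on soy from 0.432 ± 0.0377 to 3.68 ± 1.35 FPKM (1.66, SE 0.23, limma adjusted p = 0.000750). On casein it measured 0.907 ± 0.283 and 2.24 ± 0.643 FPKM (0.76, SE 0.23, limma adjusted p = 0.0221), past the adjusted p but not the fold cutoff. Its SPI mean was below 1 FPKM, so Fzd5 passed the filter through other groups. None of the 5 other secreted or membrane inhibitors tested was called in either comparison. Dkk2 passed the adjusted p but not the fold cutoff. It measured 2.66 ± 0.550 and 1.01 ± 0.123 FPKM on casein (-0.86, SE 0.23, limma adjusted p = 0.0132). On soy Dkk2 measured 2.83 ± 0.322 and 1.40 ± 0.979 FPKM (-0.75, SE 0.23, limma adjusted p = 0.0332). Igfbp4 and Dkk4 did not pass the adjusted p in either comparison. Kremen1, a membrane receptor for Dkk proteins that inhibits the pathway and is counted here among the co-receptors, was called lower on casein (-1.14, SE 0.25, limma adjusted p = 0.00511). Kremen1, Dkk2, Dkk4 and Igfbp4 fall outside the rule for named genes and were chosen after their values were seen.

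Of the 17 cytoplasmic and nuclear genes tested, 1 was higher and 2 were lower on casein, and 1 was higher on soy. Beside the shares over all genes given above, these few calls are not read as a result about the list. Gsk3b, a kinase of the destruction complex, rose from 8.09 ± 0.935 to 18.0 ± 2.77 FPKM on casein (1.06, SE 0.19, limma adjusted p = 0.00187), while Apc2 and the transcription factor Lef1 fell (-1.22 and -1.24, limma adjusted p of 0.00180 and 0.0194). Of the 8 β-catenin targets tested beside Axin2 and Lgr5, 5 were lower and 1 was higher on casein, and 2 were higher on soy. Tnfrsf19, a receptor of the tumour necrosis factor family, fell from 5.86 ± 0.947 to 0.0788 ± 0.136 FPKM on casein (-2.67, SE 0.33, limma adjusted p = 0.000248). Tnfrsf19, Apc2 and Lef1 had CAS-E2 means of 0.0788, 0.442 and 0.270 FPKM. These genes passed the filter of 1 FPKM through other groups, and their folds rest on values near the detection limit. Cd44, an adhesion molecule, rose on casein from 2.57 ± 0.537 to 8.90 ± 1.68 FPKM (1.47, SE 0.21, limma adjusted p = 0.000522). Ccnd1, the cell-cycle gene cyclin D1, rose on soy from 11.2 ± 1.21 to 23.7 ± 4.52 FPKM (1.01, SE 0.17, limma adjusted p = 0.00199). On casein Ccnd1 measured 12.9 ± 1.45 and 20.8 ± 2.87 FPKM (0.65, SE 0.17, limma adjusted p = 0.0107), past the adjusted p but not the fold cutoff. Rnf43 and Lef1 are counted both among the targets and under their other role. The targets thus did not move in 1 direction. In SPI against CAS no gene of these 6 lists was called.

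**Figure D5:**
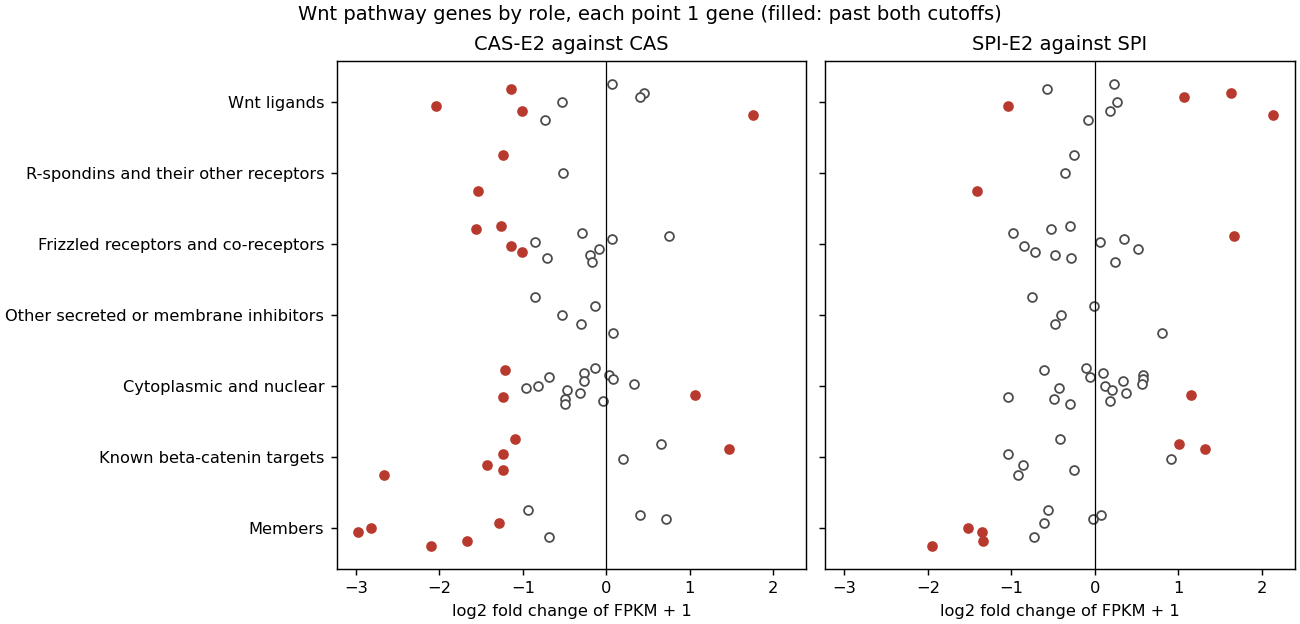
Log2 fold change on the log2(FPKM + 1) scale of the tested genes of the 6 pathway lists and of the members, by role, for CAS-E2 against CAS and SPI-E2 against SPI; filled points passed the adjusted p and the 2-fold cutoff. The members called lie on the lower side in both comparisons, while Wnt ligands and targets are called on both sides.

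Over the 12 libraries, Sfrp2, Sfrp5, Wif1, Lgr4, Lgr5 and Axin2 varied together. Their 15 pairs had correlations of log2(FPKM + 1) of 0.82 to 0.97 (median 0.94), whereas Frzb and Dkk3 had correlations of -0.56 to -0.26 with these genes. Sfrp4 lay between, with correlations of 0.49 to 0.73 with the same genes. The set was picked for its fall with E2 in these data, so high correlations within it follow in part from that choice. The correlations share the 4 groups, the library depths and the pool SPI-E2 1, and are given as a description. Among the 5328 genes with a mean of at least 5 FPKM, those most like Sfrp2 were Idh2 and Plcg1 (r = 0.98 for both). Those most like Lgr4 were Pam and Idh2 (0.99 and 0.98), and those most like Lgr5 were Gulo and Gstm7 (0.99 for both). Axin2 was most like Crebbp and Smarca2 (0.98 for both), Sfrp5 most like Spock2 and Add3 (0.98 for both), and Wif1 most like Mettl3 and Ston1 (0.93 for both). Sfrp4 was most like Cybrd1 (0.97) and Dkk3 most like Chsy1 (0.97), while no gene followed Frzb closely (highest r = 0.73).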

How the data were processed

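Poly-A RNA of 12 pools of 2 uteri each was sequenced by the authors as 36-bp single reads, filtered for quality, aligned to rn4 with TopHat2 2.0.9 and Bowtie2 2.1.0, and quantified with Cufflinks 2.1.1; CASAVA 1.7 is a further tool in the submitters' processing notes. The authors deposited FPKM values and coverage per annotated transcript, written in a text field, and no read counts were used. The FPKM of the transcripts of a symbol were summed, which for each measured member was 1 transcript, and 1 was added before log2. The Cuffdiff test of the study was replaced by limma 3.58.1 in R 4.3.3: 1 fit over 4 groups with a variance trend, two-sided, with Benjamini-Hochberg adjustment over the 10279 genes with at least 1 FPKM in at least 3 libraries, keeping the study's cutoffs of an adjusted p of 0.05 and 2-fold. Reads per gene were recovered from coverage and length. Python 3.11.15, pandas 2.3.3 and matplotlib 3.10.9 made tables and plots, and the test was tested on simulated data. Of simulated 2-fold changes in CAS-E2 against CAS, 15% were called and 47% passed the adjusted p. Of simulated 4-fold changes 81% were called. A 2-fold change in FPKM is smaller on the log2(FPKM + 1) scale, so most such changes had to miss the fold cutoff. The simulation changed 100 genes by each fold, whereas 2262 genes were lower by the adjusted p in the data. The shares passing the adjusted p therefore need not hold for the data. A gene that was not called can therefore still have changed 2-fold.

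The members and lists were chosen with earlier results of these data known. The genes named were all members, from each pathway list the 2 called genes with the smallest adjusted p and the 2 with the largest change in CAS-E2 against CAS and in SPI-E2 against SPI, and for each member the 2 most correlated genes. Libraries were grouped by their labels. The replicate numbers are those of the labels, which do not say what a number marks. Libraries of the same number deviated from their group means with correlations from 0.12 up to 0.34 for the CAS-E2 and SPI-E2 groups. In the other pairs of groups these correlations were -0.26 to 0.15, so the ranges overlapped. Libraries of different numbers were not compared, and whether the numbers pair the libraries was not tested. Alternatives tried were pseudocounts, filters, scalings, the most abundant transcript, array weights, no trend, no fold cutoff, separate fits, a replicate block and leaving out each library.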

Additional observations from a re-analysis of the deposited data

How the results depend on the processing

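Over 25 alternatives 1314 values were recomputed, of which 1246 kept their direction and their side of the cutoffs. The calls of Sfrp2, Sfrp5, Wif1, Lgr4 and Lgr5 in CAS-E2 against CAS were kept wherever the gene was tested. With 1 FPKM required in all libraries 6 members were tested and the numbers called lower were 2 in CAS-E2 against CAS, 1 in SPI-E2 against CAS and 1 in SPI-E2 against SPI; Sfrp5, Wif1 and Lgr5 were then not tested. With array weights 7 were lower in SPI-E2 against CAS. In SPI-E2 against SPI 2 were lower when only the groups compared were fitted (limma adjusted p of 0.107 for Sfrp2 and 0.0666 for Lgr5) and 1 with a replicate block in that fit, which was added after seeing the data. A replicate block over 4 groups left 5, 4 and 4 members lower in CAS-E2 against CAS, SPI-E2 against CAS and SPI-E2 against SPI, and it changed no call. Leaving out 1 library gave 5 to 6, 4 to 6 and 2 to 4 members lower, with 2 in SPI-E2 against SPI without SPI-E2 2 or without SPI-E2 3. Axin2 passed the fold cutoff in CAS-E2 against CAS with a pseudocount of 0.1, array weights, a common FPKM sum (added after seeing the data) or without CAS-E2 3.

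The values that changed sign were all uncalled. For SPI against CAS they were Sfrp4 at 0.065 (median-ratio scaling) and 0.017 (common FPKM sum) and Wif1 at 0.28 (array weights). For SPI-E2 against SPI Dkk3 was at -0.068 (median-ratio scaling) and -0.29 (common FPKM sum), and for SPI-E2 against CAS-E2 Axin2 was at -0.020 (median-ratio scaling) and -0.075 (array weights). The difference between the E2 effects was -0.16 (pseudocount 0.1), -0.00287 (median-ratio scaling) and -0.37 (array weights) for Wif1. On leaving out 1 library the ranges were -0.39 to 0.17 for Sfrp4 and -0.63 to 0.22 for Wif1 in SPI against CAS, -0.38 to 0.055 for Dkk3 in SPI-E2 against CAS, and -0.34 to 0.19 for Frzb and -0.17 to 0.26 for Dkk3 in SPI-E2 against SPI. In SPI-E2 against CAS-E2 they were -0.20 to 0.12 for Axin2, -0.60 to 0.24 for Sfrp4, -0.28 to 0.067 for Frzb, -0.17 to 0.29 for Sfrp5 and -0.21 to 0.043 for Wif1, and for the difference between the E2 effects -0.50 to 0.34 for Sfrp4 and -0.27 to 0.59 for Wif1. The causes were not tested. Over all genes, 655 were lower in CAS-E2 against CAS, 1145 with a pseudocount of 0.1, 997 with a common FPKM sum and 376 with 1 FPKM required in all libraries. In SPI-E2 against SPI 191 were lower, 392 with a pseudocount of 0.1, 337 with array weights, 95 with 1 FPKM required in all libraries, 78 when only the groups compared were fitted and 31 with a replicate block in that fit. In SPI-E2 against CAS 400 were lower, 726 with a pseudocount of 0.1, 659 with array weights and 219 with 1 FPKM required in all libraries. In SPI against CAS 2 were lower and none higher, and 31 and 28 with array weights. The difference between the E2 effects could not be fitted with only the groups compared, since it uses 4 groups. Depth limits Wif1 and Sfrp5 most, whose E2 libraries rest on a few reads.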

Other observations

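Markers of liver, fat, mesothelium and endothelium were also present. The 3 measured liver markers (of Alb, Apoa1, Ttr and Fgb) summed to 1296 FPKM in the highest SPI library and to 10.7 FPKM in the lowest, and the 5 adipocyte markers to 67.5 to 434 FPKM in SPI and 42.6 to 96.9 FPKM in CAS. The 2 measured mesothelium markers summed to 24.5 to 27.6 FPKM in CAS, 13.3 to 20.6 FPKM in CAS-E2, 18.2 to 29.5 FPKM in SPI and 11.8 to 19.8 FPKM in SPI-E2, and the 3 measured endothelium markers to 52.5 to 62.5, 27.3 to 38.5, 45.3 to 57.0 and 31.3 to 37.6 FPKM. Both sums were lower in every CAS-E2 library than in every CAS library. Their part in the values of the members was not tested.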
